A study of Mus musculus with 6 samples.

Results

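The miR-15/16 family is a group of miRNAs that carry the same seed, the stretch near the 5′ end with which a miRNA recognises its target mRNAs. Its guide strands are the strands that are mostly retained in the silencing complex. They were picked by assay name as miR-15a, miR-15b, miR-16, miR-195 and miR-497, with earlier results of these data known. These names gave 5 of the 596 miRNA assays of a TaqMan RT-PCR panel, all of them in the first block of rows (335 assays, called block A here), while the second block (block B) held 261. The panel was run on total RNA of bone marrow-derived macrophages, grown from marrow over 7 days with conditioned medium of L929 cells, from male mice aged 6 to 8 weeks. The 3 control mice had the genotype LysM-Cre/Dicerwt/wt/Apoe-/- (WT), and the 3 mice with the deletion were LysM-Cre/Dicerflox/flox/Apoe-/- (KO), so all mice lacked Apoe and carried the Cre driver. LysM-Cre is active in myeloid cells, and a floxed gene is lost only in cells in which the driver has acted. The panel measured no Dicer mRNA, so the extent of the deletion in these cultures was not analysed here. In such bulk RNA, fewer cells of a type and less RNA per cell cannot be told apart.

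Dicer cuts the hairpin precursor of a miRNA into a short duplex, of which the guide strand stays with an Argonaute protein and the passenger strand is mostly degraded. The miR-15/16 family is known as a brake on the cell cycle and on survival, with cyclin and Bcl2 mRNAs among its targets, and loss of miR-15a and miR-16 is a recurrent lesion of chronic lymphocytic leukaemia. The comparison of KO with WT asks how far each member depends on Dicer in macrophages.

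The mature sequences below show what the members share and where they differ, and come from RefSeq (build GRCm38.p6), in which all 5 members were found. The seed, bases 2 to 8, is in capitals.
miR-15a: uAGCAGCAcauaaugguuugug
miR-15b: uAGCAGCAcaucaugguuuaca
miR-16: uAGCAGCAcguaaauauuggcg
miR-195: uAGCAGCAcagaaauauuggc
miR-497: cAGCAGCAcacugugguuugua
All 5 members had the seed AGCAGCA, which 10 of the 1679 mature miRNA names in the table carried (0.596%). Beyond the seed their 3′ ends differed. With positions counted from 1 at the 5′ end, miR-16 and miR-195 differed at 2 of the 21 positions compared (G10A and U11G, the base of miR-16 first). miR-15a and miR-15b differed at 4 of 22 positions (A12C, G20A, U21C and G22A, the base of miR-15a first). miR-497 differed from miR-195 at 9 of 21 positions and from miR-15a at 5 of 22, and was the member with C at its 5′ end (U1C in both comparisons).

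The members come from 3 loci of 2 hairpins each, which matters here because the hairpins of a locus lie close enough to share a primary transcript. On the minus strand of chromosome 14, within the span of the long noncoding RNA gene Dleu2, lie miR-15a (chr14:61632075-61632096) and the first copy of miR-16 (chr14:61631936-61631957). Their 5′ ends are 139 bases apart. On the plus strand of chromosome 3, within the span of the condensin subunit gene Smc4, lie miR-15b (chr3:69009775-69009796) and the second copy of miR-16 (chr3:69009918-69009939), 143 bases apart. miR-497 (chr11:70234730-70234751) and miR-195 (chr11:70235062-70235082) lie 332 bases apart on the plus strand of chromosome 11. The assay of miR-16 reads a sequence that both copies encode, so it cannot tell them apart. The hairpins of the third locus and of both miR-16 copies are shown as listed in RefSeq, with the guide strand in capitals and bases on both sides of it.
Mir16-1: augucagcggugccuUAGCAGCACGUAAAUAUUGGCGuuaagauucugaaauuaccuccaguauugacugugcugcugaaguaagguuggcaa
Mir16-2: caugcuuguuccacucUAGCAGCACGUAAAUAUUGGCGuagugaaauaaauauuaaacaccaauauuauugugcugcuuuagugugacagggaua
Mir195a: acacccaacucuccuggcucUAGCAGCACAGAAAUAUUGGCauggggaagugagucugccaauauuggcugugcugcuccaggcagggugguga
Mir497: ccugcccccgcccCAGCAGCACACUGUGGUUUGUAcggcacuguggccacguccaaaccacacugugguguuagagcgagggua
In all of the 6 loci the guide lay on the 5′ arm, and 15 to 20 bases separated it from the strand on the other arm.

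Values were threshold cycles (Ct), the PCR cycle at which a signal is seen, so that an earlier cycle means more template, and wells without amplification were listed at 40. The mean Ct of the 5 small RNA controls of block A (U6, U87, Y1, snoRNA135 and snoRNA202), none of them made by Dicer, was 20.2 ± 1.02 in WT and 20.8 ± 1.81 in KO (SD, n = 3 per group). KO replicate 1 had the latest controls, at 22.8, and the fewest miRNA assays below a ceiling of Ct 35, 219 against 277 to 309 in the other 5 samples. As a check of the cell type, all 4 haematopoietic miRNAs of a marker list (miR-223, miR-142-3p, miR-142-5p and miR-342-3p) were below the ceiling in every sample. Their summed level, on the log2 scale relative to the controls, was 4.35 to 5.42 in WT and 2.66 to 3.52 in KO. Markers of other cells were also seen. The 4 stromal miRNAs (miR-143, miR-145, miR-199a-3p and miR-214) summed to between -7.62 and -0.70 in WT and between -4.37 and -3.34 in KO, with WT replicate 3 the lowest. The 4 epithelial miRNAs summed to -3.44 to -3.12 in WT, where all 4 were detected, and to -5.53 to -4.32 in KO, where 3 or 4 were. The 2 endothelial strands of miR-126 summed to -7.06 to -6.23 in WT and -11.1 to -7.24 in KO. The -11.1 is that of KO replicate 1, where miR-126-3p was past the ceiling (Ct 35.97) and miR-126-5p alone was counted. The lymphocyte miRNA miR-150 was below the ceiling in every sample (-8.03 to -4.88 in WT and -8.87 to -7.22 in KO). Of the neural miRNAs, miR-9 was detected in all samples but KO replicate 1 and miR-124 in WT replicate 1 alone (Ct 28.0). The muscle miRNA miR-133a was detected in WT replicate 1 (Ct 31.96) and KO replicate 1 (34.4), and the erythroid miRNA miR-451 in WT replicate 2 and KO replicates 2 and 3. The liver miRNA miR-122 and the other muscle assay, miR-1, were at Ct 40 in all samples. These markers are themselves products of Dicer, and their part in the results for the family was not tested.

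All 5 members were measured below the ceiling in all 6 samples. miR-16 had the earliest Ct of the family, with 19.4, 18.0 and 16.4 in WT replicates 1, 2 and 3, and 23.0, 19.2 and 17.6 in KO replicates 1, 2 and 3. miR-15b followed with 21.4, 21.0 and 19.8 in WT and 25.0, 22.0 and 21.6 in KO. miR-15a (23.1, 22.8 and 21.8 in WT; 26.8, 24.0 and 22.4 in KO) and miR-195 (23.3, 22.4 and 20.9 in WT; 26.8, 23.3 and 22.0 in KO) lay beside each other. Which of the pair came first differed between samples, so they have no order beyond their spread. miR-497 was the latest, with 27.4, 27.2 and 25.8 in WT and 33.5, 28.6 and 29.0 in KO. In every sample miR-16 came first, miR-15b second and miR-497 last. Assays can differ in efficiency, so this is an order of cycles and not of copy numbers.

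**Figure D1:**
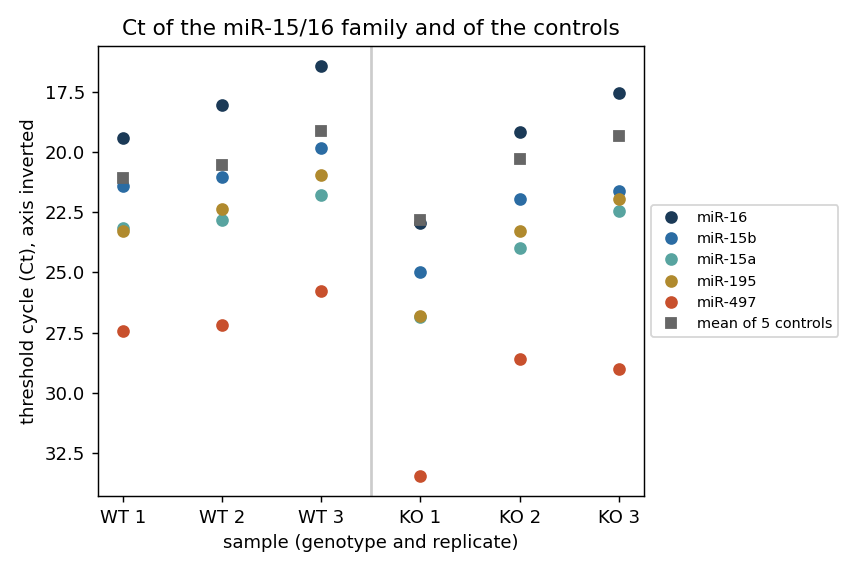
Ct (vertical axis, inverted so that more template is higher) of the 5 members and of the mean of the 5 controls of block A in each of the 6 samples (horizontal axis). The controls and the members were latest in KO replicate 1, and miR-497 lay below the other members in every sample.

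Relative to the controls of the same block, 2 of the 5 members fell in KO, miR-15b and miR-497, and 0 rose, beside 105 lower among 282 tested assays (37.2%) and 84 of the 179 tested in block A (46.9%). With the replicate number as a block the same 2 fell, beside 41.8% of all tested assays. A share of 2 in 5 is near this background. The test was limma with Benjamini-Hochberg adjustment over all 282 assays and a threshold of 0.05, on log2 abundance relative to the mean of the 5 controls. The median difference of the members was -1.37 on the log2 scale, and those of all tested assays and of block A were -1.91 and -2.03. With the mean of the miRNA assays detected in all samples as reference, which removes a common change, the median of all assays was -0.20 in place of -1.91. That of the members turned to 0.52, so the direction for miR-15a, miR-15b, miR-16 and miR-195 depends on the reference, while miR-497 was negative with both. Every KO sample lay below every WT sample for 4 members, the exception being miR-16, beside 59.9% of all tested assays. That share pools both blocks and was higher in block A, where all members were, so this does not set the family apart.

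miR-497, from the chromosome 11 locus, had the largest fall of the family. Its log2 abundance relative to the controls stood at -6.38, -6.62 and -6.67 in the WT samples and at -10.6, -8.33 and -9.67 in the KO samples. The WT samples lay close together and all KO samples were below them, KO replicate 1 the lowest. The fall was 7.90-fold (log2 -2.98 ± 0.68, SE, 3 samples a group; 95% confidence interval -4.60 to -1.37; adjusted p = 0.0312), and 41 of the 282 tested assays (14.5%) fell further. Against the mean of miRNA assays it was at -1.10 (adjusted p = 0.332). Without KO replicate 1, whose Ct of 33.5 was nearest to the ceiling, the difference was -2.45 (adjusted p = 0.0335).

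miR-15b, from the Smc4 locus, was the other member that fell. It was at -0.33, -0.48 and -0.71 in WT and at -2.12, -1.69 and -2.30 in KO, on the same log2 scale relative to the controls. The groups were separate by nearly 1 unit, and KO replicate 3 rather than replicate 1 was the lowest. The fall was 2.89-fold (log2 -1.53 ± 0.48, SE, n = 3 per group; 95% confidence interval -2.67 to -0.39; adjusted p = 0.047), and 62.4% of tested assays fell further. The call did not hold with U6 alone as reference (adjusted p = 0.0691), with the ceiling at Ct 40 (0.052) or without KO replicate 3 (0.0869), and with the mean of miRNA assays as reference the value was 0.36 (0.741).

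miR-16, the member with the earliest Ct and the one encoded at 2 loci, did not pass the test. Its log2 abundance relative to the controls stood at 1.65, 2.53 and 2.67 in the WT samples and at -0.12, 1.09 and 1.77 in the KO samples. The groups overlapped, since KO replicate 3 was above WT replicate 1. The difference was -1.37 ± 0.67 (SE, n = 3 per group; 95% confidence interval -2.95 to 0.21; adjusted p = 0.132, 0.0544 with the replicate block), or 2.58-fold lower. Without KO replicate 1 the difference was -0.85 (adjusted p = 0.238). The KO minus WT difference within replicate numbers 1, 2 and 3 was -1.77, -1.44 and -0.90. Against the mean of miRNA assays it was at 0.52.

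miR-15a, from the Dleu2 locus, was at -2.07, -2.27 and -2.69 in WT and -4.00, -3.72 and -3.11 in KO, on the log2 scale relative to the controls. The groups were separate, KO replicate 3 lying closest to WT. The difference was -1.26 ± 0.52 (SE, n = 3 per group; 95% confidence interval -2.49 to -0.04; adjusted p = 0.0833), 2.40-fold lower, and it passed only with the floor set after scaling (adjusted p = 0.0362). It was at 0.62 against the mean of miRNA assays. miR-195, the neighbour of miR-497, was at -2.20, -1.80 and -1.83 in WT and -3.99, -3.01 and -2.62 in KO. These groups were separate too, again with KO replicate 3 closest to WT. The difference was -1.26 ± 0.56 (SE, n = 3 per group; 95% confidence interval -2.59 to 0.06; adjusted p = 0.103), 2.40-fold lower, and 0.62 with the mean of miRNA assays as reference.

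**Figure D2:**
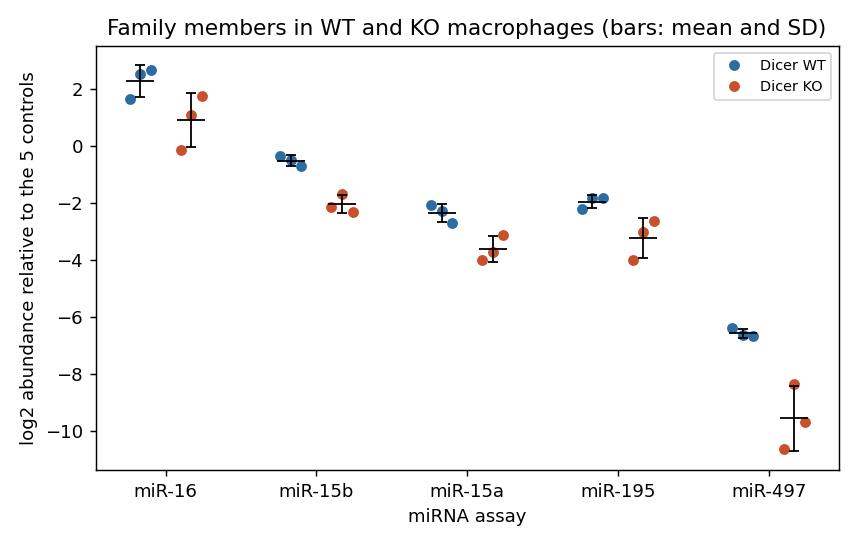
Log2 abundance relative to the 5 controls of the block (vertical axis) of the 5 members in WT and KO macrophages, with each sample as a point and the mean and SD of 3 samples as bars. The groups overlap for miR-16 and are separate for the other members, with the widest gap between means at miR-497 (-6.56 in WT and -9.54 in KO). The means of all members but miR-497 were higher in KO with the mean of miRNA assays as reference, which is not plotted.

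The calls depended on single samples, as did those of the whole panel. Without WT replicate 1, 2 or 3, 0 members passed (limma), beside 0.692%, 0.685% and 0.687% of all tested assays. Without KO replicate 2 there were also 0 members, beside 1.06% of assays. Without KO replicate 3 there was 1, miR-497 (39.3% of assays), and without KO replicate 1 both calls held (34.5% of assays). At an unadjusted limma p under 0.05, 3 members passed in the fit of all 6 samples (miR-15a at 0.0446, miR-15b at 0.0158 and miR-497 at 0.0034). Most of all tested assays did so too, so this count does not set the family apart.

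The KO samples differed from each other, and the members did so in different ways. Set against the mean of the WT samples, KO replicate 1 was at -2.40 for miR-16, -2.04 for miR-195, -1.66 for miR-15a and -1.62 for miR-15b, and the median of the tested assays of block A was -2.58 in that sample. In KO replicate 3 miR-16, miR-195 and miR-15a were at -0.51, -0.68 and -0.76, beside a block median of -1.63. miR-15b went the other way, at -1.79 in KO replicate 3 and -1.18 in KO replicate 2. miR-497 was below the block median in each KO sample, at -4.06, -1.78 and -3.12, where the medians were -2.58, -1.64 and -1.63. So 4 members were above the block median in KO replicates 1 and 2, and 3 in KO replicate 3.

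**Figure D3:**
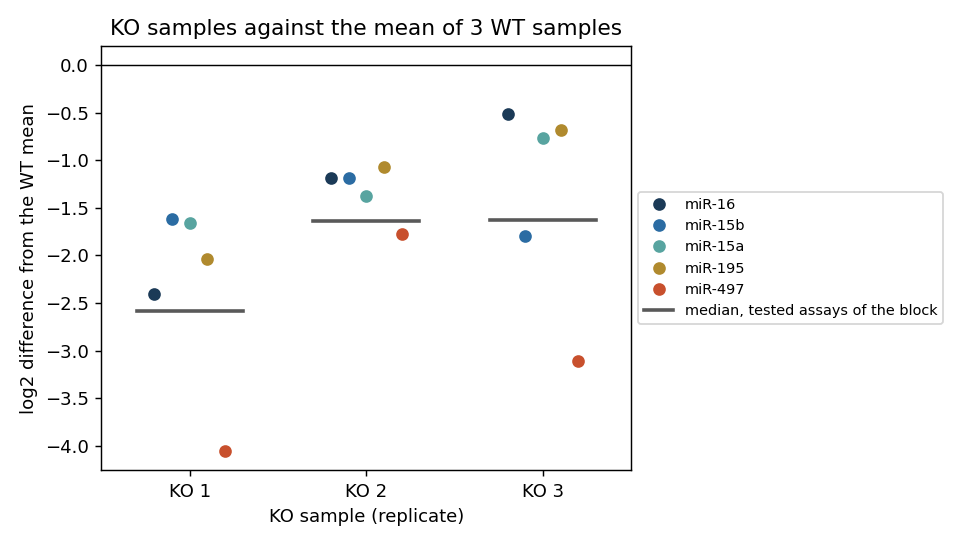
Log2 difference of each KO sample from the mean of the 3 WT samples (vertical axis), relative to the controls, for the 5 members (points) beside the median of the 179 tested assays of block A (grey lines). miR-497 is below the line in all 3 KO samples (-4.06, -1.78 and -3.12), while miR-15a, miR-16 and miR-195 are above it in all 3; with the mean of miRNA assays as reference, not plotted, the group difference of all members but miR-497 was positive.

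To ask whether some members changed more than others, the difference between 2 members was taken within each sample, where the controls of their common block cancel, and compared between KO and WT for all 10 pairs. miR-497 minus miR-195, which share the chromosome 11 locus, was -4.18, -4.81 and -4.85 in the WT samples and -6.63, -5.32 and -7.05 in the KO samples. All KO values were below all WT values, and the shift was -1.72 ± 0.56 on the log2 scale (SE, n = 3 a group; two-sided exact permutation p = 0.1, the smallest that 3 against 3 samples allow; 0.25 adjusted over 10 pairs). Against miR-15a, miR-16 and miR-15b the shift of miR-497 was -1.72, -1.62 and -1.45. In each of these the groups were separate, with the same exact permutation p of 0.1 (0.25 adjusted), and none passed a threshold of 0.05. All 4 pairs use the same miR-497 values. With the ceiling at Ct 32 the groups of miR-497 minus miR-16 overlapped (shift -1.13, exact permutation p = 0.4). The 4 pairs with miR-497 kept their sign in all 9 alternatives each, with shifts between -2.38 and -0.96. This is little evidence of stability, since most of the alternatives could not turn the sign. U6 alone as reference cancels within a sample, the ceiling at Ct 40 left the shifts unchanged, and separate groups keep their sign without any single sample. Only the ceiling at Ct 32 was not fixed in this way. It gave -1.24, -1.23, -1.13 and -0.97 against miR-195, miR-15a, miR-16 and miR-15b.

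Among the other 4 members the 6 pairs shifted by -0.27 to 0.00 with overlapping groups (exact permutation p from 0.7 to 1, all 1 after adjustment), which does not show that they changed alike. At the Dleu2 locus, miR-16 minus miR-15a was 3.72, 4.80 and 5.36 in the WT samples and 3.88, 4.81 and 4.88 in the KO samples. The shift was -0.10 ± 0.58 (SE, n = 3 per group), smaller than its error. At the Smc4 locus, miR-15b minus miR-16 was -1.98, -3.01 and -3.38 in the WT samples and -2.003, -2.78 and -4.07 in the KO samples, a shift of -0.16 ± 0.73. miR-16 and miR-195, the pair with the most alike sequences, had the smallest error of the 10 pairs, at 3.85, 4.33 and 4.50 in the WT samples and 3.86, 4.10 and 4.39 in the KO samples, a shift of -0.10 ± 0.25.

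**Figure D4:**
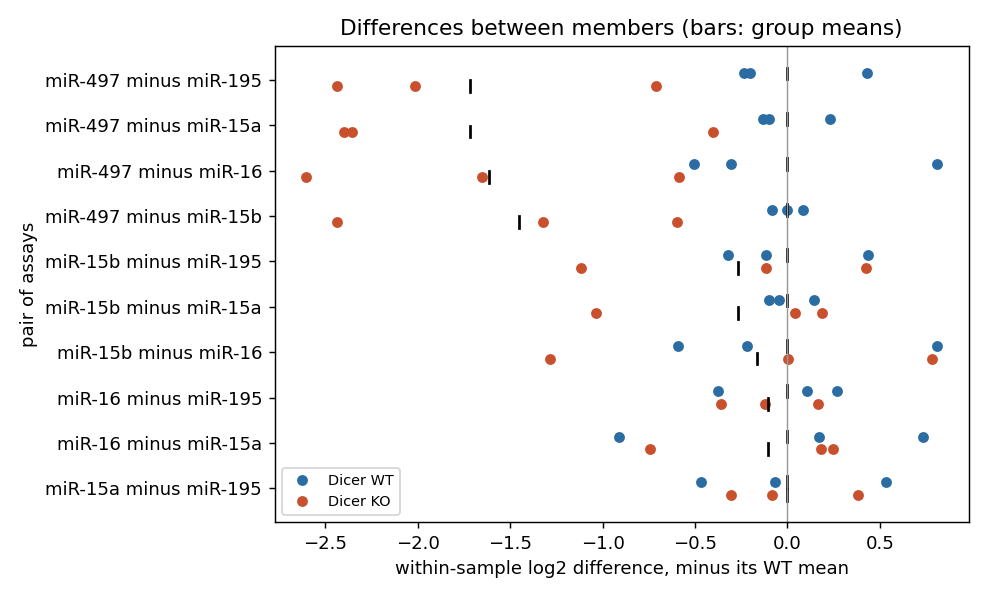
Within-sample log2 difference between 2 members, minus its mean in WT (horizontal axis), for the 10 pairs (vertical axis), with each sample as a point and group means as bars. In the 4 pairs with miR-497 all KO points lie left of all WT points, with shifts from -1.72 to -1.45, and in the other 6 pairs the groups overlap.

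The other strands of the hairpins and the miRNAs of related seed give the setting of these values. Passenger strands, marked # in the panel, were assayed for miR-15a and miR-16, in block B. With the controls of block B as reference, miR-15a# was at -5.40, -6.55 and -5.27 in the WT samples and at -8.85, -8.43 and -7.44 in the KO samples. The groups were separate and the fall was 5.66-fold (log2 -2.50, SE 0.63; adjusted p = 0.0321; -1.86 with the mean of miRNA assays as reference), where its guide was 2.40-fold lower. The call was lost when block B was fitted alone (adjusted p = 0.0871) and without a filter on assays (0.0566). miR-16# was at -7.70, -8.39 and -8.06 in WT and -8.83, -8.84 and -8.72 in KO, a difference of -0.75 (adjusted p = 0.227), with the KO samples within a narrow range. Which of the miR-16 hairpins this assay reads is not given by its name. The within-sample difference of passenger minus guide, a comparison chosen after the values were seen, shifted by -1.24 for miR-15a (exact permutation p = 0.1, groups separate) and by 0.62 for miR-16 (exact permutation p = 0.5, groups overlapping), 0.2 and 0.5 adjusted over both. Guide and passenger were measured in different blocks, each with its own controls.

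Relatives of the family with the same or a similar seed were assayed too. miR-322, a miRNA of an X-linked cluster, has the family's seed, miR-503 of the same cluster differs in the last seed base, and miR-103 and miR-107, known for a role in insulin sensitivity, carry the seed shifted by 1 base, as their mature sequences show with the seed in capitals.
miR-322: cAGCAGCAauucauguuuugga
miR-503: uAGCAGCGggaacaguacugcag
miR-103: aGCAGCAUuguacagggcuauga
miR-107: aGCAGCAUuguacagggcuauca
Of the 7 assays of passenger strands and relatives, 3 fell and 0 rose (beside 37.2% lower among all tested assays), with a median of -2.61. miR-103 was down 9.35-fold (log2 -3.23, SE 0.62; adjusted p = 0.0311) and miR-503 6.10-fold (log2 -2.61, SE 0.83; adjusted p = 0.0471, 0.0535 with the replicate block); with the mean of miRNA assays as reference they were at -1.34 and -0.72. Without KO replicate 1 miR-503 was at -1.71 (adjusted p = 0.0335), and its call was lost with the ceiling at Ct 40 (0.0622) and with the floor set after scaling (0.0564). Without WT replicate 1, 2 or 3 or KO replicate 2, 0 of the 7 assays passed (limma; adjusted p of miR-103 0.111, 0.109, 0.0733 and 0.056). miR-322 was measured by assays in both blocks, which were close in WT (Ct 25.5, 24.7 and 23.9 in block A; 25.9, 24.6 and 23.4 in block B) but not in KO. In KO replicate 1 the block A assay gave 30.3 and the block B assay did not amplify, while KO replicates 2 and 3 gave 26.0 and 25.3 in block A and 26.0 and 24.8 in block B. The block A assay was at -1.91 (adjusted p = 0.0524; 0.0475 with U6 alone as reference, 0.0369 with the ceiling at Ct 32, 0.0261 over the assays detected in all 6 samples; -0.02 with the mean of miRNA assays as reference) and the block B assay, with that well set to the ceiling, at -3.55 (adjusted p = 0.144). Without KO replicate 1 they were at -1.36 (block A, adjusted p = 0.0524) and -1.31 (block B, 0.12). miR-107 gave 31.2, no amplification and 30.2 in KO, against 26.9, 28.0 and 27.0 in WT, a difference of -4.27 with the empty well at the ceiling (adjusted p = 0.0623, 0.0485 with the replicate block). The size of this value rests on that well: without KO replicate 2 it was -2.57 (adjusted p = 0.101), without KO replicate 1 -5.74 (0.0381), with the ceiling at Ct 32 -3.27 (0.0306) and with the ceiling at Ct 40 -5.94 (0.145).

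**Figure D5:**
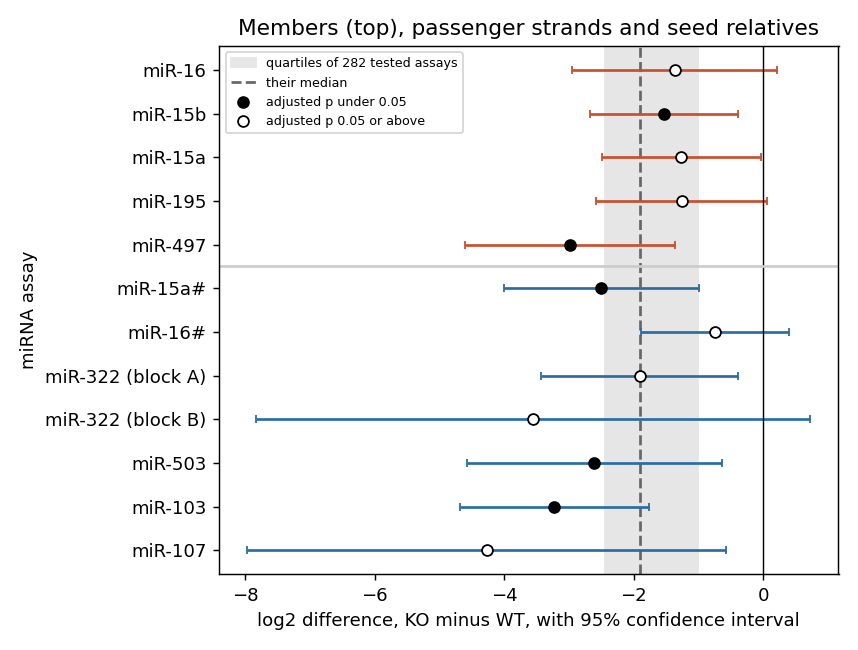
Log2 difference, KO minus WT, relative to the controls, with its 95% confidence interval (horizontal axis) for the 5 members and, below the line, the 7 assays of passenger strands and seed relatives. Filled points passed the test (adjusted p under 0.05). The dashed line is the median of the 282 tested assays of both blocks (-1.91). The grey band spans their quartiles, inside which lie all members but miR-497. The quartiles of block A alone, where all members were, are -2.44 and -1.44 and are not drawn. Between those lay only miR-15b, with miR-15a, miR-16 and miR-195 above them and miR-497 below. Not plotted is the mean of miRNA assays as reference, with which the 4 members inside the band were at 0.36 to 0.62.

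Some other assays lay near the mean profile of the members, which is not the course of any single member. After subtraction of the WT mean, the mean profile of the 5 members ran at -0.05, 0.09 and -0.03 in the WT samples and at -2.35, -1.32 and -1.37 in the KO samples. By root mean square difference over the 6 samples, the nearest of 196 other assays detected in all samples were miR-29c (0.12), miR-532-5p (0.14), miR-26b (0.14), miR-30b (0.18) and miR-320 (0.21), all in block A, where the median assay was at 0.72. These 5 had differences between -1.71 and -1.51 relative to the controls, and those of miR-532-5p and miR-30b passed the test (adjusted p = 0.0473 and 0.0471). The mean profile includes miR-497, which lay below the other 4 members in each KO sample. The KO minus WT difference of this mean, -1.68, lay between that of miR-497 (-2.98) and those of the other 4 (-1.53 to -1.26). Nearness to the mean is therefore not nearness to a member.

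In the authors' deposited table of fold changes, KO over WT was 0.161 for miR-497, 0.367 for miR-15b, 0.438 for miR-16, 0.440 for miR-15a and 0.461 for miR-195. In the authors' deposited table of relative quantities, the KO samples were at 0.0670, 0.304 and 0.115 for miR-497 and at 0.271, 0.498 and 0.622 for miR-195. Both tables rest on U6, snoRNA135 and snoRNA202 alone; the quantities are set against the geometric mean of WT, and the fold changes are ratios of arithmetic means. miR-497 was the lowest member by both routes, but both start from the same Ct values, so this is not independent support.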

How the data were processed

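Per the labels' protocols, total RNA (mirVana) went through TaqMan reverse transcription and a TaqMan preamplification step; no instrument or software is given in the sources used here. Deposited by the authors were Ct values (a score, lower with more template), a table of relative quantities and a table of fold changes, both a ratio. From the values, the formula of the deposited quantities was worked out for the members, passenger strands and seed relatives. They are 2 to the power of minus the Ct relative to the block's own U6, snoRNA135 and snoRNA202, over the geometric mean of WT. The fold changes are ratios of the arithmetic means of these quantities. Amplification before the PCR and wells listed at 40 make late Ct values less certain, and precision is limited by the few samples.

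Ct values at or above 35 were set to 35, and log2 relative abundance was the mean Ct of the 5 controls of the block minus the Ct. An assay was tested if below 35 in all 3 samples of a group. WT and KO were compared with limma 3.58.1 (R 4.3.3), genotype alone, two-sided, adjusted over all assays, tested beforehand on simulated data. Pairs of members were compared by exact permutation tests (scipy 1.17.1, Python 3.11.15). The labels call the samples biological replicates, 3 mice a group. Same-number samples of WT and KO deviated together (r = 0.23, 0.28 and 0.27 over assays), so the replicate number was also used as a block. Unlike numbers were at -0.28 to 0.01. Deviations were taken from each group's mean, so positive values for like numbers pull those for unlike numbers down. The pairing comes from the data, not from a stated batch. Members, lists and tests were chosen with earlier results of these data known. Named are all members, the listed passenger strands (of those listed, miR-15a# and miR-16# were assayed) and seed relatives, the controls, and the 5 assays of nearest profile.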

Additional observations from a re-analysis of the deposited data

How the results depend on the processing

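The precision of every value is limited by 3 samples a group and by the control Ct values, the only measure of input. Of the members that fell (2 of 5), the number was 1 with U6 alone as reference and 1 with the ceiling at Ct 40. Leaving out 1 sample gave 0 to 2. The number was 0 without a reference, with the mean of miRNA assays as reference or without a filter on assays. Over all assays these last 3 settings gave 2, 2 and 2 falls in place of 105, and leaving out 1 sample gave 2 to 112. For passenger strands and relatives (3 of 7) they gave 0, 0 and 0, the ceiling at Ct 32 gave 5, and leaving out 1 sample gave 0 to 4. The cause was not tested for any of these settings. With the mean of miRNA assays as reference, which by construction removes a common change, the median of all assays was -0.20, that of the members 0.52, and miR-15a, miR-15b, miR-16 and miR-195 were at 0.62, 0.36, 0.52 and 0.62. Without a reference the median of all assays was -2.45. With the replicate block 2 members fell and 118 assays in all; besides miR-503 and miR-107 it changed no call of a member, passenger strand or relative. Leaving out 1 sample turned the sign of the small shifts between members: miR-15b minus miR-195 ranged from -0.62 to 0.15, miR-15b minus miR-15a from -0.50 to 0.12, miR-15b minus miR-16 from -0.64 to 0.40, miR-16 minus miR-195 from -0.29 to 0.031, miR-16 minus miR-15a from -0.56 to 0.27 and miR-15a minus miR-195 from -0.23 to 0.27. The pairs with miR-497 kept their sign, as they must when 1 sample is left out of separate groups.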
